A study of Homo sapiens with 3 samples.

Results

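The HOX genes are 39 protein-coding genes, named HOXA, HOXB, HOXC or HOXD with a number, that lie in 4 clusters on chromosomes 7, 17, 12 and 2. They were taken by symbol from GENCODE release 44, and all 39 names were found among 20033 protein-coding genes on chromosomes 1 to 22, X and Y. Occupancy by the chromatin remodeler CHD8 and by TRRAP, a large scaffold protein through which factors such as MYC recruit histone acetyltransferases, was measured by ChIP-seq. The cells were human neural stem cells made from the embryonic stem cell line H9. They were wild type, were grown with EGF and FGF and received no other treatment that the labels name. There was 1 library for CHD8, 1 for TRRAP and 1 for control IgG, of which the last was not analysed here. With no replicates, no difference could be tested, and values are given as counts and shares of the deposited peak lists. The lists hold no expression values, so neither the cell type label nor the activity of the HOX genes was checked.

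HOX genes encode homeodomain transcription factors that give cells their position along the head-to-tail axis. Within a cluster the genes stand in the order of their domains, with low-numbered paralog groups expressed towards the head and high-numbered groups towards the tail. In the developing nervous system they pattern the hindbrain and spinal cord and stay silent in the forebrain, where Polycomb proteins keep the clusters repressed. CpG-rich promoters are typical of these genes.

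Of the 39 HOX genes, 1 had a CHD8 peak within 1 kb of the start of its canonical transcript and 0 had a TRRAP peak there. The CHD8 share was 2.56% (Wilson 95% interval 0.454 to 13.2), beside 55.9% of all protein-coding genes. The TRRAP share was 0% (0 to 8.97), beside 34.9% of all protein-coding genes. Both peaks together were found at 34.0% of all protein-coding genes and at 0 of the 39 HOX genes. At least 1 of the peaks was found at 56.9% of all protein-coding genes and at 1 HOX gene. These intervals cover counting error only, and neighbouring HOX genes share one stretch of chromatin, so they are not 39 independent observations.

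The CHD8 list held 3 peaks inside the clusters, 1 each in HOXA, HOXC and HOXD, and the TRRAP list held 0. HOXB was empty in both lists. Sequence from each of the 3 peaks is shown because these are the only listed peaks within 523 kb of HOX sequence. The stretches are parts of the peaks, with 190 of 379 bp printed for HOXA, 201 of 424 bp for HOXC and 198 of 300 bp for HOXD. All are from the plus strand of GRCh38. The word in capitals in the HOXA sequence is a match to the consensus of CTCF, the insulator protein, and in the other sequences the capitals mark each CpG. The HOXD stretch ends at the base before the first annotated exon of HOXD8.
Part of the HOXA peak, chr7:27160983-27161172: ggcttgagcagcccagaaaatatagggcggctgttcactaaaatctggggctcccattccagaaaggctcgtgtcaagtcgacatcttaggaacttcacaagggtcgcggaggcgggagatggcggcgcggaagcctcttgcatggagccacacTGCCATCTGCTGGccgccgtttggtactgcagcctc
Part of the HOXC peak, chr12:54018067-54018267: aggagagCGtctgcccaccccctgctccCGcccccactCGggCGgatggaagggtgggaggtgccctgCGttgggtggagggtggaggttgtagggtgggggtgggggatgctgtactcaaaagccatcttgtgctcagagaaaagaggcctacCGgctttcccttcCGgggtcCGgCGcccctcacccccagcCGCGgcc
Part of the HOXD peak, chr2:176129496-176129693: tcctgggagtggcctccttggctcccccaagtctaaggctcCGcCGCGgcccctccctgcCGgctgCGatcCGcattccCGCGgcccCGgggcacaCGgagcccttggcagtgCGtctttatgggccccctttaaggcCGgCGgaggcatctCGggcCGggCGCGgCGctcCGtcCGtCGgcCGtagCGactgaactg

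The HOXD peak was the strongest of the 3 and the only one at a HOX promoter. It spanned chromosome 2, 176129496 to 176129795, with its summit at −59 bp from the start of HOXD8, a gene of the central paralog groups (negative positions are upstream). Its fold, the authors' ratio of signal at the peak over the peak caller's background, was 10.2, and its −log10 q was 16.1. That placed it at rank 10046 of 23393 CHD8 peaks. The median fold of CHD8 peaks at coding promoters was 10.6 (25th to 75th percentile 7.98 to 14.6), so the HOXD8 peak lay near the middle of that range. It carried no TRRAP peak, and the nearest one was 294845 bp from its summit. The summit also lay inside the body of HOXD-AS2, an antisense RNA gene.

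The HOXA peak lay between genes, at chromosome 7, 27160794 to 27161172, with a fold of 7.54, a −log10 q of 9.04 and rank 16499. Its summit was at −4408 bp from the start of HOXA7 and at 4454 bp from the start of HOXA9, in no annotated gene. The interval between these genes is known from other work as a CTCF-bound boundary in the cluster. The CTCF word in the sequence above stood within 100 bp of the summit, and 0.642% of the 23052 CHD8 peaks on the main chromosomes had such a word in the same window. A match to a consensus is a description of the sequence and does not show that CTCF was bound.

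The HOXC peak was the weakest, at chromosome 12, 54017942 to 54018365, with a fold of 6.22, a −log10 q of 6.97 and rank 21234. It was intronic in long transcripts of HOXC4 and HOXC6, and its summit was 9182 bp downstream of the start of HOXC8. The start of 1 long non-coding RNA gene, ENSG00000273046, lay within 1 kb of it. The 201 bp around the summits held 29 CpG in HOXD, 12 in HOXA and 11 in HOXC. The E-box CACGTG, the ETS word CCGGAAGT and the HOX-PBX word TGATNNAT were in 0 of these 3 windows, beside 5.37%, 3.63% and 2.62% of all CHD8 peaks. With 3 windows, these counts of 0 show no difference.

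**Figure D1:**
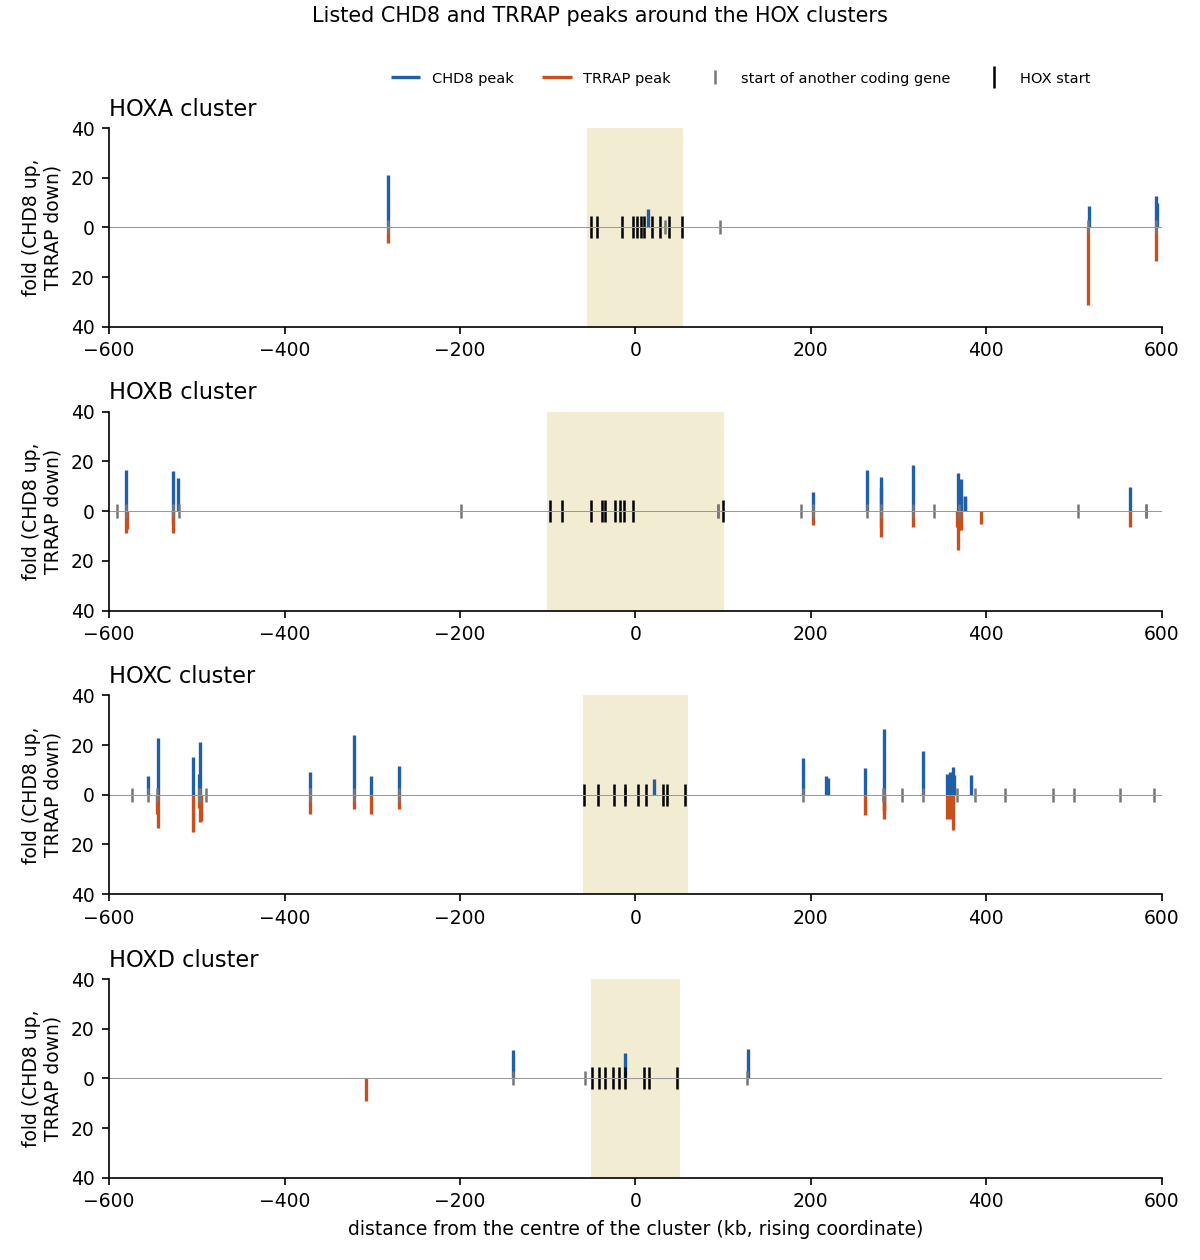
Peaks of both lists around the centre of each HOX cluster (shaded). The horizontal axis is distance from the centre in kb, bars give the fold of CHD8 peaks upwards and of TRRAP peaks downwards, and ticks mark start sites. The shaded spans hold 3 CHD8 bars and 0 TRRAP bars. Peaks of both lists stand on either side, except beyond HOXD1. The first TRRAP peak there, 1021 kb from the HOXD cluster, lies outside the panel.

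Positions along the clusters were compared by class, with paralog groups 1 to 4 taken as anterior, 5 to 8 as central and 9 to 13 as posterior. CHD8 promoter peaks were found at 0 of 12 anterior, 1 of 11 central and 0 of 16 posterior genes. TRRAP promoter peaks were found at 0 genes of each class. The lists thus showed no head-to-tail gradient that could be described.

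Distances to the nearest peak say how far each gene was from listed occupancy. HOXD8 overlapped its peak, and the next nearest members to CHD8 were HOXA7 at 4119 bp, HOXA9 at 4365 bp and HOXD9 at 6777 bp. No other member was therefore near the 1 kb limit. The farthest were HOXB1 at 299931 bp, HOXB2 at 285833 bp and HOXB4 at 252592 bp. The median over the 39 genes was 32796 bp, beside 14 bp over 19994 other coding genes. Of those other genes, 28.3% lay at least as far from CHD8 as the HOX median.

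By cluster, the median distance to CHD8 was 17113 bp in HOXA, 231560 bp in HOXB, 32796 bp in HOXC and 22216 bp in HOXD. By this measure HOXB stood apart, as it held no CHD8 peak of its own. Its nearest gene was 102192 bp from a CHD8 peak, while HOXA, HOXC and HOXD had 1 peak inside each. The contrast with HOXA and HOXC rests on 1 low-ranked peak in each (16499 and 21234 of 23393). Above the median rank these clusters also held 0.

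TRRAP peaks were far from every member. The nearest member was HOXB13, which is separated from the rest of its cluster by a long gap, at 102408 bp. HOXB9 followed at 204800 bp and HOXC4 at 205718 bp. The farthest were HOXD1 at 353867 bp, HOXA13 at 335191 bp and HOXD3 at 322506 bp. The median was 259392 bp, beside 25430 bp over the other coding genes. Of the other coding genes, 27.9% lay at least as far from TRRAP as HOXB13, and among the 3993 with a CpG ratio in the top 2 deciles 14.6% did.

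**Figure D2:**
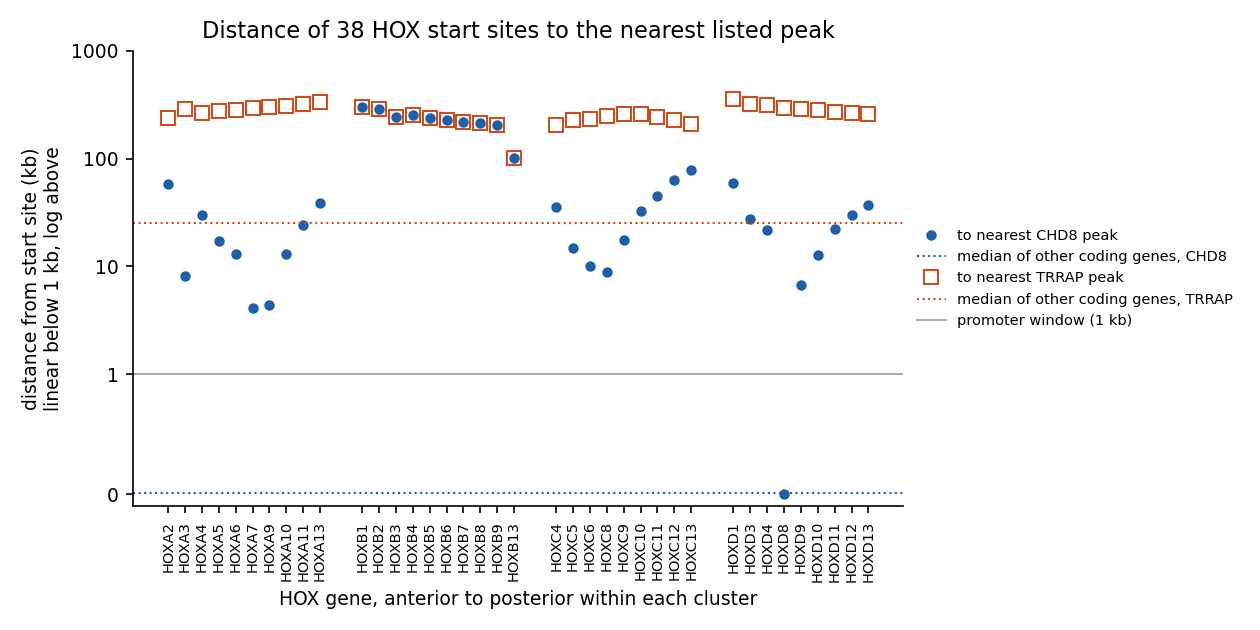
Distance in kb from 38 HOX start sites to the nearest CHD8 peak (filled circles) and TRRAP peak (open squares), with genes in paralog order within each cluster. The axis is linear below 1 kb and logarithmic above, and dotted lines give the medians of other coding genes (14 bp and 25430 bp). HOXD8 alone lies below the 1 kb line, and in HOXB the distances to the lists nearly coincide.

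CpG content of the promoters was examined next, because listed peaks were much more frequent at CpG-rich starts. The CpG ratio, observed over expected CpG within 500 bp of the start site, ran from 0.338 to 1.02 over the HOX genes. Its median was 0.775, beside 0.725 over all coding genes. HOXA9 (1.02), HOXD11 (1.00) and HOXA5 (0.981) were highest, and HOXB3 (0.338), HOXB6 (0.376) and HOXC6 (0.425) were lowest.

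No HOX gene fell in the lowest 2 deciles of CpG ratio, and 13 fell in the highest 2. Other genes of the same deciles had a CHD8 promoter peak in 69.8% of cases and a TRRAP promoter peak in 44.5%, when each HOX gene was given the share of its own decile. Those shares would correspond to 27.2 HOX genes with CHD8 and 17.4 with TRRAP, and the lists held 1 and 0. The differences from genes of matched CpG ratio were −67.3 percentage points for CHD8 and −44.5 for TRRAP. In the top 2 deciles, 14.9% of the 4006 genes had neither peak, beside 12 of 13 HOX genes (92.3%). HOX genes made up 12 of the 598 genes without either peak there, or 2.01%.

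**Figure D3:**
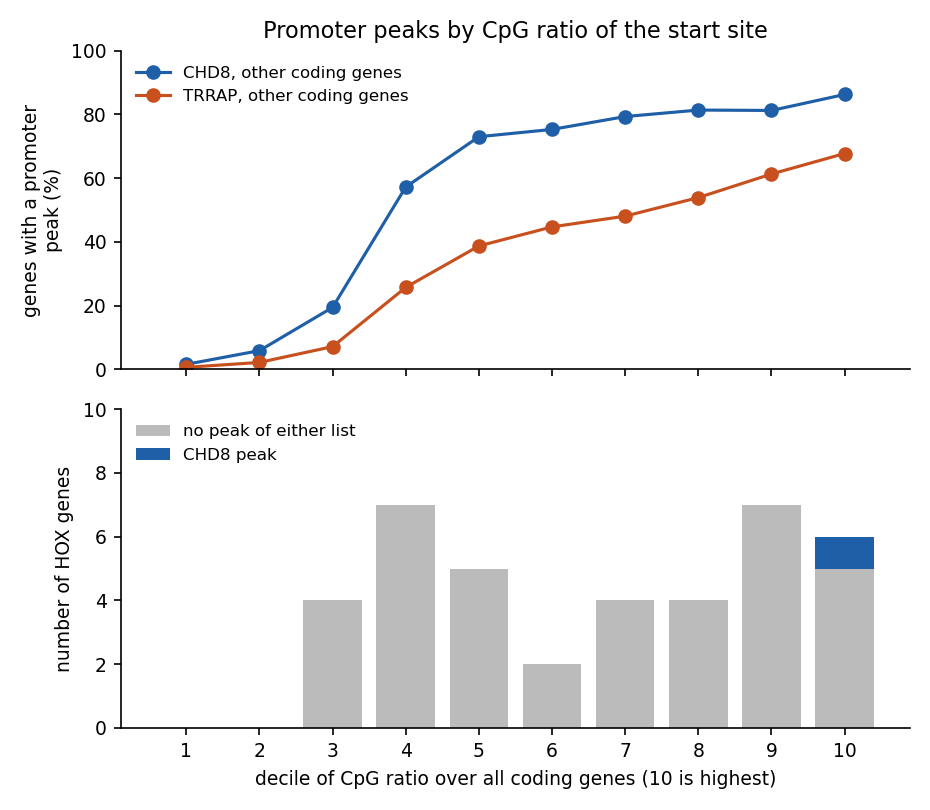
Promoter peaks against the CpG ratio of the start site, in deciles over all coding genes. The upper panel gives the percentage of other coding genes with a peak, which rises to 86.3% (CHD8) and 67.8% (TRRAP), and the lower panel counts the 39 HOX genes, of which the 1 with a CHD8 peak (HOXD8) is in decile 10.

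One peakless promoter is shown for comparison with the HOXD peak: the 200 bases upstream of HOXA9, the HOX gene with the highest CpG ratio, on the minus strand and with each CpG in capitals.
HOXA9 upstream, chr7:27165538-27165737: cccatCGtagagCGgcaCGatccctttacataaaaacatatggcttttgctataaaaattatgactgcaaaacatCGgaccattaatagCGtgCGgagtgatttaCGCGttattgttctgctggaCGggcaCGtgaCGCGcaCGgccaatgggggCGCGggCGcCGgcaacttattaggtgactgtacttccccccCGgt
It held 18 CpG at a GC content of 52.0%, and the 198 bases printed from the HOXD8 peak held 23 at 72.2%. The CpG ratios of these stretches were 1.33 and 0.896.

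Consensus words at the start sites were searched on both strands and without mismatch, from 250 bp before to 50 bp after each canonical start, and each word was counted whether or not it overlapped another. The E-box, a binding word of MYC-MAX dimers and related factors, was in 20 of 39 HOX promoters (51.3%, 36.2 to 66.1). It was in 8.68% of 19994 other coding promoters, and in 10.0% when these were matched on CpG decile. The 20 genes included 5 of 11 HOXA, 4 of 10 HOXB, 5 of 9 HOXC and 6 of 9 HOXD genes. Of the 1736 other coding genes with an E-box in the window, 67.1% had a CHD8 promoter peak and 44.8% a TRRAP promoter peak. Over all protein-coding genes these shares were 55.9% and 34.9%. Of the 20 HOX genes, 0 had either. Because only 1 of the 39 HOX genes had a promoter peak at all, this 0 says nothing about the E-box.

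The E-boxes of 6 HOX genes are shown with 10 bases on each side, on the strand of the gene and with the E-box in capitals, to set paralogs beside each other. Positions are those of the first E-box base from the start site.
HOXA5, −85 bp: acaacaaaagCACGTGattcgaagtc
HOXB5, −77 bp: tcaacaaaagCACGTGattccctaac
HOXC9, −109 bp: taaatacgatCACGTGggggccgggg
HOXD9, −45 bp: taaatatgatCACGTGggccgcgcga
HOXC13, −160 bp: cagagcgggtCACGTGggcgcgggag
HOXD13, −131 bp: ttcctaccccCACGTGgccgcgcgca
HOXA5 and HOXB5, which belong to one paralog group, had 14 of the 20 flanking bases in common, and so did HOXC9 with HOXD9 and HOXA7 with HOXB7. Pairs of E-boxes from different paralog groups had at most 12 in common, with a median of 7 over 215 pairs, each taken in its better orientation. The 14 pairs from one group had a median of 7.5, and 3 of them reached 14. The 22 E-boxes began 3 to 200 bp upstream of the start, with a median of 80 bp, and 18 began within 110 bp.

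Other words also differed in frequency between HOX and other coding promoters. For every word, the E-box included, the intervals treat promoters as independent. Some HOX paralogs shared sequence beside the E-box, so the 39 promoters are not independent and the differences were not tested. The CCAAT word, bound by NFY, was in 29 of 39 (74.4%), beside 36.0% of others. The word TGATNNAT, bound by HOX proteins with their PBX partners, was in 10 of 39 (25.6%, 14.6 to 41.1), beside 4.74% of others and 2.78% of others matched on CpG decile. Those 10 included HOXA2, HOXB1 and HOXB2, genes of the anterior paralog groups.

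Words typical of broadly used promoters were searched as well, and of these the SP word was less frequent at HOX genes. The SP word GGGGCGGGG was in 2 HOX promoters (5.13%, 1.42 to 16.9), those of HOXA4 and HOXC13, beside 24.5% of others. The ETS word CCGGAAGT was in 0 of 39, beside 6.15% of others, and 94.1% of the other genes that had it carried a CHD8 promoter peak. The NRF1 and YY1 words were also in 0 HOX promoters, beside 1.69% and 1.44% of others. The interval around 0 of 39 reaches 8.97%, above each of these shares, so these counts of 0 show no difference. The part of these words in the missing peaks was not tested.

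**Figure D4:**
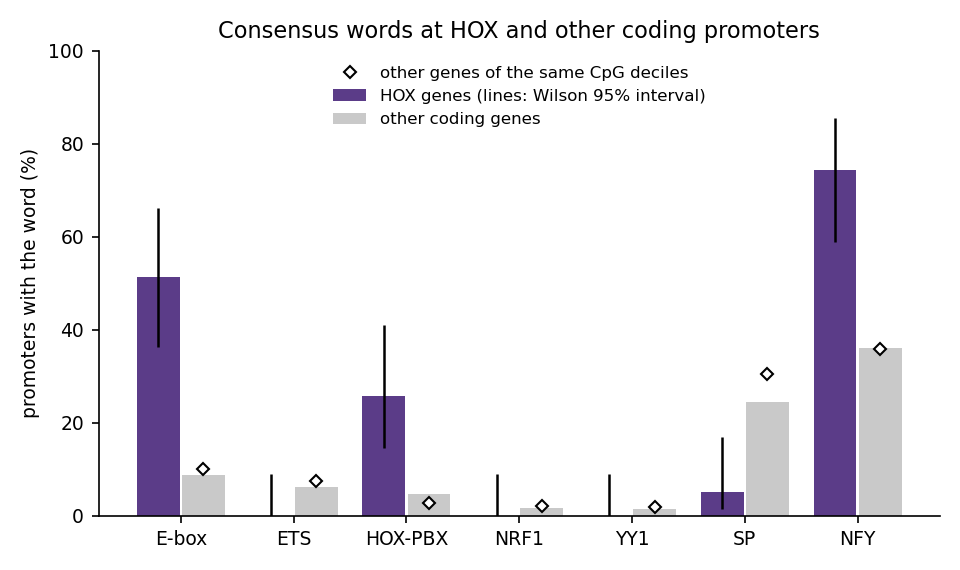
Percentage of promoters with each consensus word, for the 39 HOX genes (dark bars, with Wilson 95% intervals as lines) and 19994 other coding genes (grey bars), with diamonds for other genes matched on CpG decile. The E-box (51.3% against 8.68%), HOX-PBX and NFY words are more frequent at HOX genes, and the SP word is less frequent.

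The clusters were then taken as whole regions, from the first to the last base of their HOX genes. HOXA spanned chromosome 7, 27092993 to 27200091 (107 kb, 11 genes), and HOXB spanned chromosome 17, 48528526 to 48728750 (200.2 kb, 10 genes). HOXC spanned chromosome 12, 53938831 to 54056030 (117 kb, 9 genes), and HOXD spanned chromosome 2, 176092721 to 176190907 (98.2 kb, 9 genes). All HOX genes of a cluster lie on 1 strand. The reference has 0 unknown bases in the clusters, and 96.2% of their 32-base words occur once in the genome (91.6% in HOXB). The placement of reads was not tested.

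Over the 4 clusters the density was 0.574 CHD8 peaks and 0 TRRAP peaks per 100 kb. The means over the main chromosomes, which include long stretches without genes, were 0.746 and 0.463. The CHD8 density of the clusters was thus close to the genome mean, and the 523 kb would hold 3.90 CHD8 and 2.42 TRRAP peaks at those means. The clusters were dense in genes, with 8.23 coding starts per 100 kb. In 572 windows of 100 kb with at least 5 coding starts and no HOX start, the mean was 4.61 CHD8 and 2.67 TRRAP peaks. Of those windows, 12.6% had 0 CHD8 peaks and 20.5% had 0 TRRAP peaks.

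The other coding genes that start inside the clusters are PRAC1 and PRAC2 in HOXB and the readthrough genes ENSG00000257184 in HOXA and ENSG00000273049 in HOXC, and 0 of these 4 had a promoter peak. The 27 long non-coding RNA genes that start in the clusters, among them HOTAIR, HOTAIRM1 and the antisense genes, had 1 with a CHD8 peak (3.70%, beside 19.1% of 18866 in the genome) and 0 with a TRRAP peak (beside 12.1%). That one was ENSG00000273046. All 8 microRNA genes of the clusters, which include MIR10A, MIR10B and 3 MIR196 genes that repress HOX transcripts, lacked peaks of both lists. In the genome 10.4% of microRNA genes had a CHD8 and 7.40% a TRRAP peak, so a count of 0 among 8 genes shows no difference.

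The peak-free stretches ran far beyond the clusters. Around HOXA the nearest peaks of both lists were at the promoters of SKAP2, an adaptor of Src family kinases, 228 kb beyond the anterior end of the cluster (CHD8 fold 21.2, TRRAP fold 6.26), and of HIBADH, a mitochondrial enzyme of valine breakdown, 462 kb beyond HOXA13 (CHD8 fold 8.43). TRRAP was strong at HIBADH, with a fold of 31.1. EVX1, a homeobox gene next to HOXA13, had neither peak, and its nearest CHD8 peak was 81630 bp away.

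Around HOXB, the first CHD8 peak beyond HOXB1 was 421 kb away at SNX11, a sorting nexin gene (fold 13.3), and the first TRRAP peak 427 kb away at CBX1, which encodes a heterochromatin protein (fold 8.65). On the HOXB13 side, both lists had a weak peak 102 kb away at CALCOCO2, an autophagy receptor gene (CHD8 fold 7.54, TRRAP fold 5.78). The direct neighbours SKAP1 and TTLL6 had neither.

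Around HOXC, both lists had a peak at CALCOCO1, 211 kb beyond HOXC13 (CHD8 fold 11.5, TRRAP fold 5.78). SMUG1, a DNA repair glycosylase gene 133 kb beyond HOXC4, had CHD8 alone (fold 14.6). Around HOXD the flanking CHD8 peaks were at LNPK, 90.3 kb beyond HOXD13 (fold 11.5), and MTX2, a gene of mitochondrial import, 78.4 kb beyond HOXD1 (fold 12.0). EVX2, which lies between HOXD13 and LNPK, had neither peak. The nearest TRRAP peaks were 258 kb and 1021 kb away.

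The TRRAP-free stretch that contains each cluster was 798 kb long for HOXA, 730 kb for HOXB, 532 kb for HOXC and 1377 kb for HOXD. They held 13, 16, 11 and 12 coding starts, respectively. Among 14285 stretches between neighbouring TRRAP peaks, the HOXD stretch held 5 coding starts of the top 2 CpG deciles, which 8 other stretches also did and 1 exceeded with 6. The HOXA stretch held 4 such starts, at rank 11 with 16 stretches tied. The HOXB and HOXC stretches held 2 each, at rank 66 with 239 tied. In all 4 stretches these starts were those of HOX genes. The count therefore restates the missing TRRAP promoter peaks and is no separate measure of the stretches. The longest CHD8-free stretch with HOX genes was that of HOXB, 723 kb with 14 coding starts, 10 of them HOX. It held 2 starts of the top 2 CpG deciles, at rank 9 with 55 tied.

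Genes that act with or on the HOX genes were read from 4 lists. The cofactors PBX, MEIS and PKNOX, which bind DNA together with HOX proteins, had a CHD8 promoter peak at 9 of 9 genes (100%, 70.1 to 100) and a TRRAP promoter peak at 6 of 9 (66.7%, 35.4 to 87.9). Other genes of the same CpG deciles had CHD8 in 62.7% and TRRAP in 39.7% of cases. The highest CHD8 folds were 16.4 at PKNOX1, 15.5 at PKNOX2 and 14.2 at MEIS2. These also had the highest TRRAP folds, 9.12, 14.4 and 11.5.

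The list of 21 Polycomb and trithorax regulators, which keep HOX clusters off or on, also counts the insulator protein CTCF. Its members had CHD8 at 21 genes and TRRAP at 15 (71.4%, 50.0 to 86.2). CTCF had the highest CHD8 fold, 48.6, followed by BMI1 with 24.8 and RNF2 with 24.3, both Polycomb repressive complex 1 genes. EZH2, the Polycomb methyltransferase, had the highest TRRAP fold of the list, 37.8, followed by CTCF with 19.6 and RING1 with 16.8. Other genes of the same CpG deciles had CHD8 in 79.4% and TRRAP in 55.6% of cases.

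Upstream inducers of HOX expression, the CDX genes and the genes of retinoic acid receptors and metabolism with other hindbrain regulators, had CHD8 at 4 of 17 (23.5%, 9.56 to 47.3). These 4 were receptors: RXRB (fold 31.4), RXRA (10.2), RARB (9.75) and RARA (5.33). TRRAP was at 2 of 17, namely RXRA (fold 15.3) and RXRB (6.26). For this list, the genes of matched CpG ratio had CHD8 in 62.6% and TRRAP in 38.4% of cases, so the inducers differed from them by −39.1 and −26.6 percentage points. The CDX genes, the ALDH1A genes that make retinoic acid and the CYP26 genes that break it down had neither peak.

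The closest comparison was with 40 other homeobox genes that mark regions of the brain and spinal cord. They had CHD8 at 12 genes (30.0%, 18.1 to 45.4) and TRRAP at 8 (20.0%, 10.5 to 34.8). Their median CpG ratio was 0.795, beside 0.775 at the HOX genes. The Wilson intervals treat genes as independent, which the HOX genes are not, so they cannot decide whether the groups differ. The 40 genes include EVX1 and EVX2, which lie beside HOXA and HOXD. Both groups were below other genes of their CpG deciles, with a difference of −43.2 points for CHD8 at the brain-region genes. The difference between the groups was not tested. Those with the highest CHD8 folds were PAX6 (12.8), GBX2 (12.0) and IRX3 (12.0), and IRX2 had the highest TRRAP fold, 17.7, followed by PAX6 and IRX3 with 9.60 each. DLX1, DLX2, EN2, IRX1, IRX5, LHX2, NKX6-1 and NKX6-2 were the remaining members with a CHD8 peak.

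**Figure D5:**
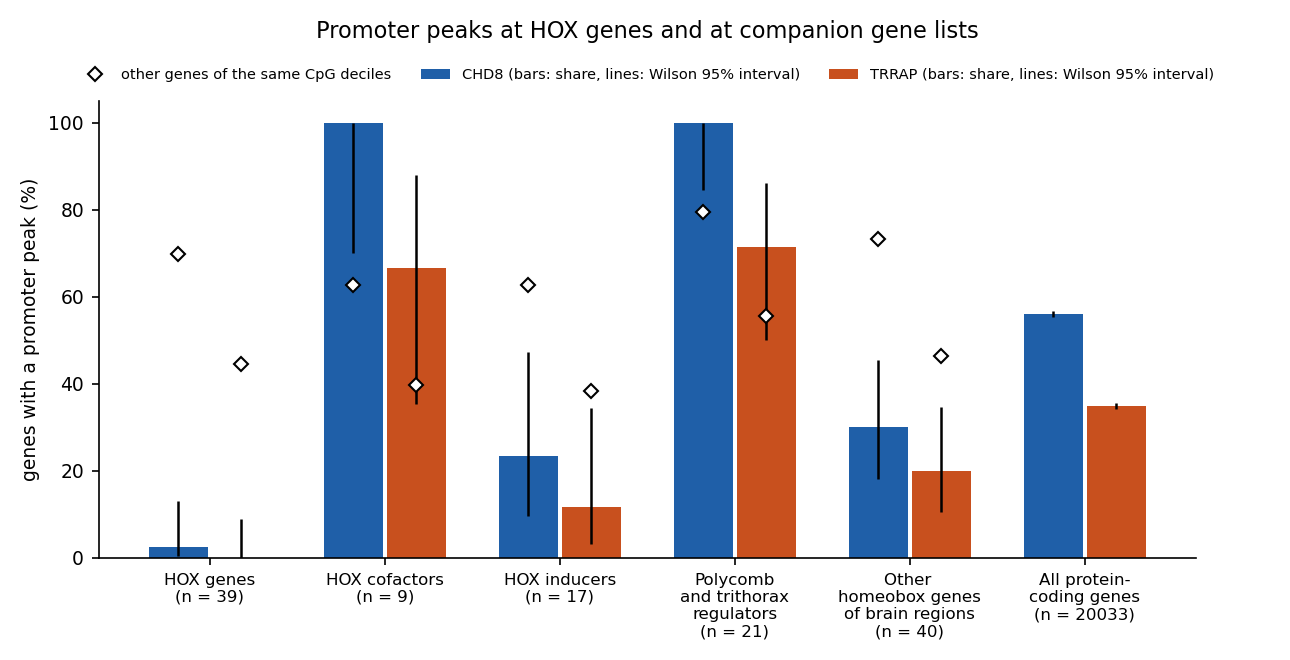
Percentage of genes with a CHD8 (blue) or TRRAP (orange) promoter peak in each list, with Wilson 95% intervals as lines and diamonds for other genes of the same CpG deciles. HOX genes stand at 2.56% and 0%, below the 30.0% and 20.0% of other homeobox genes and the 55.9% and 34.9% of all coding genes.

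The absence of a gene from a list means that no peak passed the authors' threshold. The lowest folds listed were 4.89 for CHD8 and 4.82 for TRRAP, and occupancy weaker than the listed peaks would not be seen here. Read totals are unknown for both libraries.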

How the data were processed

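ChIP-seq peak lists were analysed for CHD8 and TRRAP, 1 library each. Per the labels' protocols, crosslinking used 2 mM disuccinimidyl glutarate and then 1% formaldehyde, and sonication ran for 14 cycles. The submitters' processing notes name HISAT2, MACS2 2.1.1.20160309 and GRCh38, without options or control. The names of the lists give false discovery rates of 0.0001 for CHD8 and 0.001 for TRRAP. The fold is a linear ratio deposited by the authors. The deposited −log10 q was used for ranks, and the deposited −log10 p and score were not used. In each list 25 sequence names matched the GRCh38 reference, of 84 for CHD8 and 88 for TRRAP. On the matched sequences 0 peaks ran past the end, and on the others this could not be checked. The main chromosomes held 23052 of 23393 CHD8 peaks and 14309 of 14735 TRRAP peaks.

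Peaks, start sites (GENCODE 44, canonical transcripts) and sequence were joined with Python 3.11.15, pandas 2.3.3, scipy 1.17.1 and pysam 0.24.0. Functions were tested on simulated data. Ties in rank were broken by fold, width and position. Depth is unknown, so precision was given only as Wilson intervals over genes, and no test or p-value was computed. The members, gene lists and alternatives were chosen with earlier results of these data known. Named genes were all HOX genes with a peak, the 3 nearest and farthest, the flanking genes and the 3 highest folds per list. Promoter words, gene-dense windows, peak-free stretches and word uniqueness were added after the peaks were seen, as were the choice of sequences and the E-box comparison. Values of 1 HOX gene are not reported here by gene, although it is included in counts and medians.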

Additional observations from a re-analysis of the deposited data

How the results depend on the processing

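HOXD8 was the single HOX gene with a CHD8 promoter peak and 0 had TRRAP with windows of 500 or 2500 bp, with starts of all transcripts, by summit, and with peaks above the median rank. The TRRAP count was also 0 at a q of at most 0.0001. Cluster counts did not change with 10 kb added on each side, by summit or at that q. Above the median rank, the CHD8 count fell to 0 in HOXA and 0 in HOXC, and the density to 0.191 per 100 kb, because these peaks rank in the lower part of the list. The difference from genes of the same CpG decile kept its sign in each setting. For CHD8 it was −69.6 points with all transcripts and −50.9 above the median rank. For TRRAP it was −45.9 with 2500 bp, −47.5 with all transcripts and −25.4 above the median rank. For both peaks it was −43.3 in the main setting and −44.7, −46.3 and −21.7 in that order. Of the 3 CHD8 peaks, 0 overlapped TRRAP under each overlap rule, including peaks within 1 kb. The closest TRRAP peak to any of their summits was 241386 bp away, so no rule could have given another count. The share over the whole CHD8 list is not given here. The share of TRRAP peaks overlapping CHD8 had no value, because the clusters held none. Counting paralog group 4 as central changed no class count. No paired analysis was possible because each antibody had 1 library. The 3 peaks and the unknown depth limit what can be said of weaker sites.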
